A study of Mus musculus with 23 samples.

Results

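The 5 reported noncanonical imprinted genes, Slc38a4, Sfmbt2, Gab1, Jade1 and Smoc1, were followed in mouse embryos lacking Zfp57. The members were chosen by symbol, as genes reported to be imprinted through maternal H3K27me3, and made up 5 of the 26183 gene symbols of the tables. All 5 were found in the total count tables, and 4 of them (all but Jade1) had reads assigned to a parental allele. The question was whether their allelic state in the embryo depended on Zfp57.

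RNA was sequenced from 23 whole mouse embryos at E13.5, with 1 library per embryo. There were 13 females (6 M+Z+ with 3 M-Z+ and 4 M-Z-) and 10 males (4 M+Z+ with 3 M-Z+ and 3 M-Z-). M+Z+ embryos had Zfp57 from the oocyte and a functional zygotic copy and served as the controls. M-Z+ embryos came from mothers without Zfp57 and received a functional copy from the father. M-Z- embryos lacked both the maternal and the zygotic product. The titles of the samples write Zfp57-/+ both for M+Z+ and for M-Z+ and Zfp57-/- for M-Z- embryos, and the column headers call M+Z+ embryos WT, so whether the M+Z+ embryos carried 1 or 2 functional copies was not settled here. All embryos were hybrids of a 129 mother and a Zfp57 carrier father that was mainly of the DBA/2J strain after backcrossing. Because the mother was always 129 and the father always DBA, parent of origin and strain cannot be told apart in these data.

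In canonical imprinting, DNA methylation laid down in a germline marks an imprinting control region, and the embryo keeps that mark on 1 parental allele. ZFP57 is a KRAB zinc finger protein that binds the methylated hexamer TGCCGC and, with its partner TRIM28, protects this methylation after fertilization. Noncanonical imprinting rests instead on H3K27me3, a repressive histone mark that Polycomb repressive complex PRC2 lays down in the oocyte and that silences the maternal allele without inherited DNA methylation. It is known mainly from preimplantation embryos and from extraembryonic tissue such as the placenta, and most of it is lost from the embryo proper after implantation. Of the members, Slc38a4 encodes a sodium-coupled transporter of neutral amino acids, and Sfmbt2 encodes a Polycomb group protein with MBT repeats whose introns host a large cluster of miRNAs. Gab1 encodes an adaptor that docks signalling proteins below receptor tyrosine kinases. Jade1 encodes a PHD finger subunit of HBO1 histone acetyltransferase complexes, and Smoc1 encodes a secreted matricellular protein related to SPARC.

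The members lie on 5 different chromosomes of mm9. Slc38a4 spans chr15:96825254-96886387 on the minus strand, and Sfmbt2 spans chr2:10292078-10516880 on the plus strand. Gab1 spans chr8:83288330-83404418 on the minus strand. Jade1 spans chr3:41359656-41420786 and Smoc1 spans chr12:82127795-82287401, both on the plus strand. No exon of a member overlapped an exon of another gene on either strand in the deposited annotation. The 250 bases before the outermost deposited start were read from the mm9 genome for each member and searched on both strands for the ZFP57 hexamer, TGCCGC or its complement GCGGCA. None of the 5 windows held these letters. Over all genes 9.89% of 25895 windows of the same length did, so no match in 5 windows is near that share. The window of Plagl1, a zinc finger gene under a germline-methylated control region that is used here as the contrast, held 1 match on the strand opposite to the gene, 90 bases from the start. Over 2 kb on each side of the start, Slc38a4 and Smoc1 held 2 matches each and Plagl1 held 6. Sfmbt2, Gab1 and Jade1 held 0 in that wider window, which held a match for 51.2% of all genes. The windows of Slc38a4 and Plagl1 are shown because the allelic results turn on these genes, with the hexamer in capitals where it occurs. Slc38a4 is chr15:96886388-96886637 on the minus strand (52.8% GC, 3 CpG), and Plagl1 is chr10:12810388-12810637 on the plus strand (70.4% GC, 19 CpG), both 5′ to 3′ along the gene.
Slc38a4: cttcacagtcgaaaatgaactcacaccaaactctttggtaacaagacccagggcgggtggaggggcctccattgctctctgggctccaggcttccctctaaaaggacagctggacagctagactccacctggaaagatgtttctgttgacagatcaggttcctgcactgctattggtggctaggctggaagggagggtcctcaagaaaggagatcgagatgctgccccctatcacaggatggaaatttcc
Plagl1: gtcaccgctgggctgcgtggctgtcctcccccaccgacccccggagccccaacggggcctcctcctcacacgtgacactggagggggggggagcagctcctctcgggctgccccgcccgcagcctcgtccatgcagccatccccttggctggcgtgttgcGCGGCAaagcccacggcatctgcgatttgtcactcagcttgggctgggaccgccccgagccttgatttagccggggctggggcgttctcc
The windows of the other 4 members had 58.4% GC with 8 CpG (Sfmbt2), 70.8% with 24 (Gab1), 64.4% with 16 (Jade1) and 69.6% with 12 (Smoc1), so Slc38a4 had the fewest CpG of the 5. A match is a description of the letters only, and no match in a window says nothing on binding elsewhere.

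The total count was 15.2 to 24.1 M per embryo, and 2.46 to 3.94 M reads per embryo were assigned to an allele. The targeted gene Zfp57 was measured at 52.7 to 99.1 CPM (counts scaled to a library of 1 M) in M+Z+ embryos of both sexes and 66.6 to 78.6 CPM in M-Z+ embryos. It was at 31.9 to 34.0 CPM in female and 25.5 to 35.3 CPM in male M-Z- embryos, with no overlap, so its reads fell but did not vanish. The log2 fold change of Zfp57 in M-Z- against M+Z+ embryos was -1.02 ± 0.138 (SE; adjusted p = 0.000399) in females and -1.33 ± 0.115 (SE; adjusted p = 4.69e-05) in males, and the latter was -1.27 (adjusted p = 4.87e-05) without male M-Z- replicate 2. The tissue label was checked against markers of other tissues that a whole embryo could carry. The 12 trophoblast and placenta markers summed to 2.28 to 5.29 CPM over the 23 embryos; Plac1 and Elf5 made up most of this, Prl2c2 was at 0, and none of the other 9 exceeded 0.519 CPM. The 7 visceral endoderm and yolk sac markers found, most of which fetal liver also uses, summed to 1147 to 2877 CPM in male M-Z- and 2929 to 3957 CPM in male M+Z+ embryos. Afp, at a mean of 2090 CPM over the 23 embryos, made up most of this on average. In females they summed to 1746 to 2596 CPM in M-Z-, 1762 to 2832 CPM in M-Z+ and 2110 to 4227 CPM in M+Z+ embryos. Of the 7, 1 was called lower in M-Z- females and 0 in M-Z- males, with median log2 fold changes of -0.41 and -0.55. The median was -0.30 in M-Z+ females and 0.015 in M-Z+ males, with 0 called. The 7 embryo proper markers summed to 2249 to 3588 CPM in male M-Z- and 3479 to 4925 CPM in male M+Z+ embryos. In females these sums were 2413 to 2939 and 2754 to 4873 CPM. Alb and Col2a1, at means of 1572 and 1236 CPM over the 23 embryos, made up most of these sums on average. None of the 7 was called in M-Z- embryos, with median log2 fold changes of -0.083 in females and 0.051 in males. Single markers went both ways, from -0.88 to 0.43 in females and from -1.14 to 0.57 in males. The part of these markers in the values below was not tested. Replicate 2 of the male M-Z- embryos stood apart, being the lowest or the highest of the 23 embryos in 42.1% of 15503 genes, against 3.98 to 15.5% for each of the others. It also had the lowest sum of the yolk sac markers, and why it stood apart was not tested. Values without it are given beside the male comparisons of expression between M-Z- and M+Z+ embryos, but not for the markers. In bulk RNA, fewer cells of a type and less RNA per cell cannot be told apart.

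Slc38a4 was read from the paternal allele alone or nearly alone in every embryo, with or without Zfp57. Among M+Z+ embryos, 4 of 1616 allele-assigned reads were maternal, a share of 0.248% (95% exact binomial interval 0.0675 to 0.633%). Among M-Z+ embryos, 0 of 843 reads were maternal (95% exact binomial interval 0 to 0.437%; the limit of 3 counts among these reads is 0.356%). Among M-Z- embryos, 1 of 1044 reads was maternal, a share of 0.0958% (95% exact binomial interval 0.00243 to 0.533%). The shares do not differ beyond counting error, and the maternal share was not higher in embryos without Zfp57. The error from counting is all that these intervals and limits hold, because PCR copies of a molecule were not marked.

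Paternal reads of Slc38a4 were found in every embryo, and 3 of the 5 maternal reads came from 1 male M+Z+ embryo. In female M+Z+ embryos the paternal reads of Slc38a4 numbered 147 to 188 and 1 maternal read was seen in 1 of the 6 embryos. The paternal reads were 145, 181 and 134 in the 3 female M-Z+ embryos and 199, 150, 176 and 188 in the 4 female M-Z- embryos, all without a maternal read. In male M+Z+ embryos there were 217, 154, 153 and 123 paternal reads, and the 3 maternal reads all fell in the third of these. The male M-Z+ embryos held 154, 115 and 114 paternal reads and no maternal ones. The male M-Z- embryos held 90, 116 and 124 paternal reads, with 1 maternal read in the last. Thus 20 of the 23 embryos had no maternal read of Slc38a4 at all. These reads were a small sample of the gene, since the 3503 allele-assigned reads correspond to 8.19% of its 42756 total counts. They could come from few variant positions, which the tables do not give.

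The P-score, the share of paternal reads among the allele-assigned reads less 0.5, is 0.5 with paternal reads alone and 0 with equal alleles. The mean P-score of Slc38a4 was 0.497 ± 0.0062 (SD, n = 10) in M+Z+, 0.5 in every one of 6 M-Z+ embryos and 0.499 ± 0.00302 (SD, n = 7) in M-Z- embryos. Within M+Z+ embryos the paternal excess was called by edgeR in both sexes, with an adjusted p of 1.2e-10 for females and 1.4e-11 for males. The pooled ratio of paternal to maternal reads rests on 1 maternal read in females and 3 in males. On the log2 scale it was 9.91 in females (95% exact binomial interval 7.43 to 15.2) and 7.75 in males (6.20 to 10.03). A call of this bias needed an adjusted p below 0.05 and a mean P-score of at least 0.1 in size, and it was made for 18.6% of 6468 genes in females and 17.2% of 6423 genes in males. Against M+Z+ embryos, the mean P-score of Slc38a4 in M-Z- embryos differed by 0.0011 in females and 0.0021 in males. In M-Z+ embryos it differed by 0.0011 in females and 0.0048 in males. The exact permutation Kruskal-Wallis p for the genotypes was 1 in each sex.

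Plagl1 shows what a change of allelic state looks like in the same libraries. Its maternal share was 0.899% in M+Z+ (548 of 60968 reads), 0.775% in M-Z+ and 54.7% in M-Z- embryos (48555 of 88835 reads). The mean P-score of Plagl1 was 0.491 ± 0.00306 (SD, n = 10), 0.492 ± 0.0049 (SD, n = 6) and -0.0473 ± 0.0105 (SD, n = 7) in these genotypes. Its P-score was 0.535 lower in female and 0.542 lower in male M-Z- embryos than in M+Z+ embryos (edgeR, adjusted p = 2.41e-10 and 1.48e-19). Every M-Z- embryo lay below every M+Z+ embryo, and the exact permutation p of the pair was 0.00476 in females and 0.0286 in males, the smallest that these group sizes allow. Maternal reads of Plagl1 went from 11.9 to 33.0 reads per M allele-assigned reads in female M+Z+ embryos to 2340 to 2627 in female M-Z- embryos. For Slc38a4 the highest value of this quantity in any M-Z- embryo was 0.387.

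**Figure D1:**
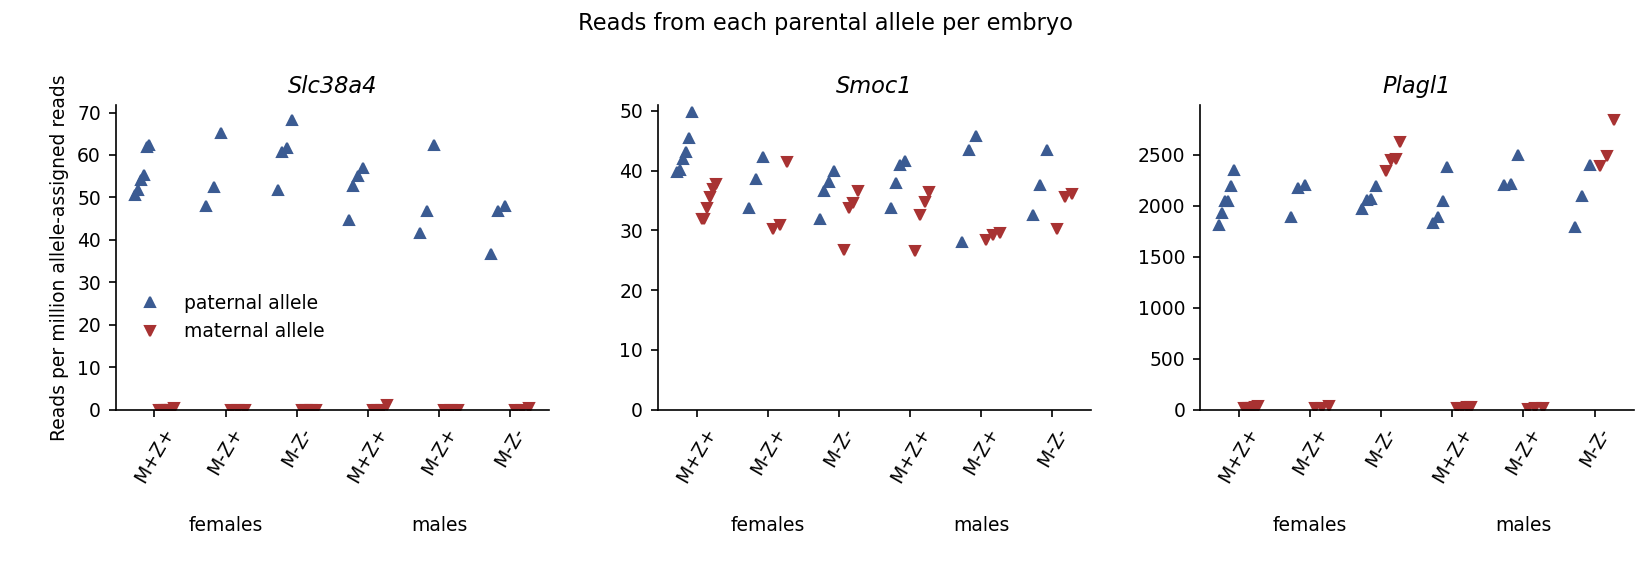
Paternal and maternal reads of Slc38a4, Smoc1 and Plagl1, each as reads per M allele-assigned reads of the embryo, by genotype and sex. Up triangles are the paternal and down triangles the maternal allele of single embryos; maternal reads of Slc38a4 stayed at or near 0 in all 3 genotypes, whereas those of Plagl1 reached 2340 to 2627 in female M-Z- embryos.

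Reading 1 allele alone was not particular to imprinted genes in these tables. Of 6277 autosomal genes with a P-score in every embryo, 153 had a P-score of at least 0.45 in all 10 M+Z+ embryos, and 229 lay at -0.45 or below in all of them. The 153 included genes that are not known as imprinted, such as Eef2 and Hspd1, with mean P-scores of 0.4999 and 0.5 in M+Z+ embryos; these were named after their values were seen. Of the 153 genes, 138 kept a P-score of at least 0.45 in all 7 M-Z- embryos and 140 in all 6 M-Z+ embryos. Slc38a4 was among the 138, and Plagl1 was among the 15 that were not kept in M-Z- embryos. The mean P-score of Slc38a4 in M+Z+ embryos exceeded that of 98.2% of the 6277 genes. Imprinting, an effect of strain and the assignment of variants to alleles cannot be told apart for Slc38a4 by this cross alone.

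Sfmbt2 was read from both alleles in every embryo. The mean P-score was 0.0431 ± 0.127 (SD, n = 10) in M+Z+, 0.0866 ± 0.119 (SD, n = 6) in M-Z+ and 0.0235 ± 0.104 (SD, n = 7) in M-Z- embryos. Maternal reads made up 46.1% (95% exact binomial interval 41.5 to 50.9%) of the pooled allele-assigned reads in M+Z+, 41.6% (35.3 to 48.0%) in M-Z+ and 45.1% (39.3 to 51.0%) in M-Z- embryos. The 3 genotypes overlapped widely, and the spread between embryos exceeded every difference between these means. Only 25 to 59 allele-assigned reads were available per embryo, and the counting interval of 18 of the 23 embryos included equal alleles.

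The P-scores of Sfmbt2 ran from -0.154 to 0.238 with a median of -0.010 in the 6 female M+Z+ embryos. They were 0.0510, 0.269 and -0.0366 in female M-Z+ embryos and 0.02, 0.075, 0.075 and 0.127 in female M-Z- embryos. In males they were 0.0614, 0.15, -0.0143 and 0 in M+Z+ embryos, 0.0652, 0.186 and -0.0152 in M-Z+ embryos and 0.107, -0.1 and -0.14 in M-Z- embryos. Both paternal-leaning and maternal-leaning embryos occurred in each group but the female M-Z- embryos, all 4 of which lay above 0 and inside the range of the controls. M-Z- embryos differed from M+Z+ embryos by 0.035 in females (edgeR, adjusted p = 0.999; exact permutation p = 0.652) and -0.094 in males (edgeR, adjusted p = 0.958; exact permutation p = 0.286). The exact permutation Kruskal-Wallis p over the 3 genotypes was 0.6254 in females and 0.481 in males.

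Gab1 was also read from both alleles in every embryo. The mean P-score was 0.0240 ± 0.0523 (SD, n = 10) in M+Z+, 0.0152 ± 0.0907 (SD, n = 6) in M-Z+ and 0.0217 ± 0.105 (SD, n = 7) in M-Z- embryos, with maternal shares of 47.6%, 49.3% and 47.2%. It had 47 to 101 allele-assigned reads per embryo, and the counting interval of 19 of the 23 embryos included equal alleles. The P-scores ran from -0.0694 to 0.0763 with a median of 0.0306 in the 6 female M+Z+ embryos and were 0.0510, 0.05, 0.06 and -0.05 in the male M+Z+ embryos. In M-Z- embryos they were 0.172, 0.0395, 0.0893 and 0.0625 in females and -0.021, -0.031 and -0.160 in males. All female M-Z- embryos thus lay above 0 and all male ones below 0. Against M+Z+ embryos of the same sex, the difference was 0.069 in females (edgeR, adjusted p = 0.881; exact permutation p = 0.0952) and -0.098 in males (edgeR, adjusted p = 0.8294; exact permutation p = 0.114). The test of the difference between the sexes, an interaction in edgeR over all 23 embryos, gave a P-score difference of -0.167. Its unadjusted p was 0.0338 and its adjusted p 0.838, so it did not pass. An unadjusted p under 0.05 was found for 5.79% of the 6462 genes of this test. In M-Z+ embryos the P-scores of Gab1 were 0.0065, 0.147 and 0.0506 in females and 0.0316, -0.131 and -0.0135 in males, and the exact permutation Kruskal-Wallis p was 0.359 and 0.203.

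Smoc1 had the deepest allelic coverage of the 4 members, with 142 to 308 allele-assigned reads per embryo, and leaned slightly to the paternal allele. Its mean P-score was 0.0503 ± 0.0313 (SD, n = 10) in M+Z+ embryos, all 10 of which were above 0, 0.0479 ± 0.0585 (SD, n = 6) in M-Z+ and 0.0271 ± 0.0171 (SD, n = 7) in M-Z- embryos. The maternal share was 45.1% in M+Z+ (95% exact binomial interval 43.0 to 47.2%), 45.1% in M-Z+ and 47.3% in M-Z- embryos. In female M+Z+ embryos the paternal excess passed the test (log2 ratio 0.32 ± 0.0852 (SE), adjusted p = 0.00754), but the mean P-score of 0.0555 was under the size needed for a call. In male M+Z+ embryos the ratio was 0.24 on the log2 scale (adjusted p = 0.179).

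The P-scores of Smoc1 ran from 0.0297 to 0.110 with a median of 0.0434 in female M+Z+ embryos and were 0.0325, 0.0886, 0.0409 and 0.0082 in male M+Z+ embryos. They were 0.0821, 0.0222 and -0.0179 in female and 0.111, -0.0141 and 0.104 in male M-Z+ embryos. In M-Z- embryos they were 0.0450, 0, 0.0297 and 0.0368 in females and 0.0459, 0.0138 and 0.0185 in males. The groups overlapped in both sexes, and the 7 M-Z- embryos were at 0.0459 or below, in the lower part of the control range or under it. M-Z- embryos differed from M+Z+ embryos by -0.028 in females (edgeR, adjusted p = 0.95; exact permutation p = 0.186) and -0.016 in males (edgeR, adjusted p = 1; exact permutation p = 0.6). The exact permutation Kruskal-Wallis p was 0.454 in females and 0.764 in males. The mean P-scores of Sfmbt2, Gab1 and Smoc1 in M+Z+ embryos exceeded those of 83.8%, 74.8% and 85.9% of the 6277 genes, whose median was -0.0023 with the middle 50% between -0.0327 and 0.0242.

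**Figure D2:**
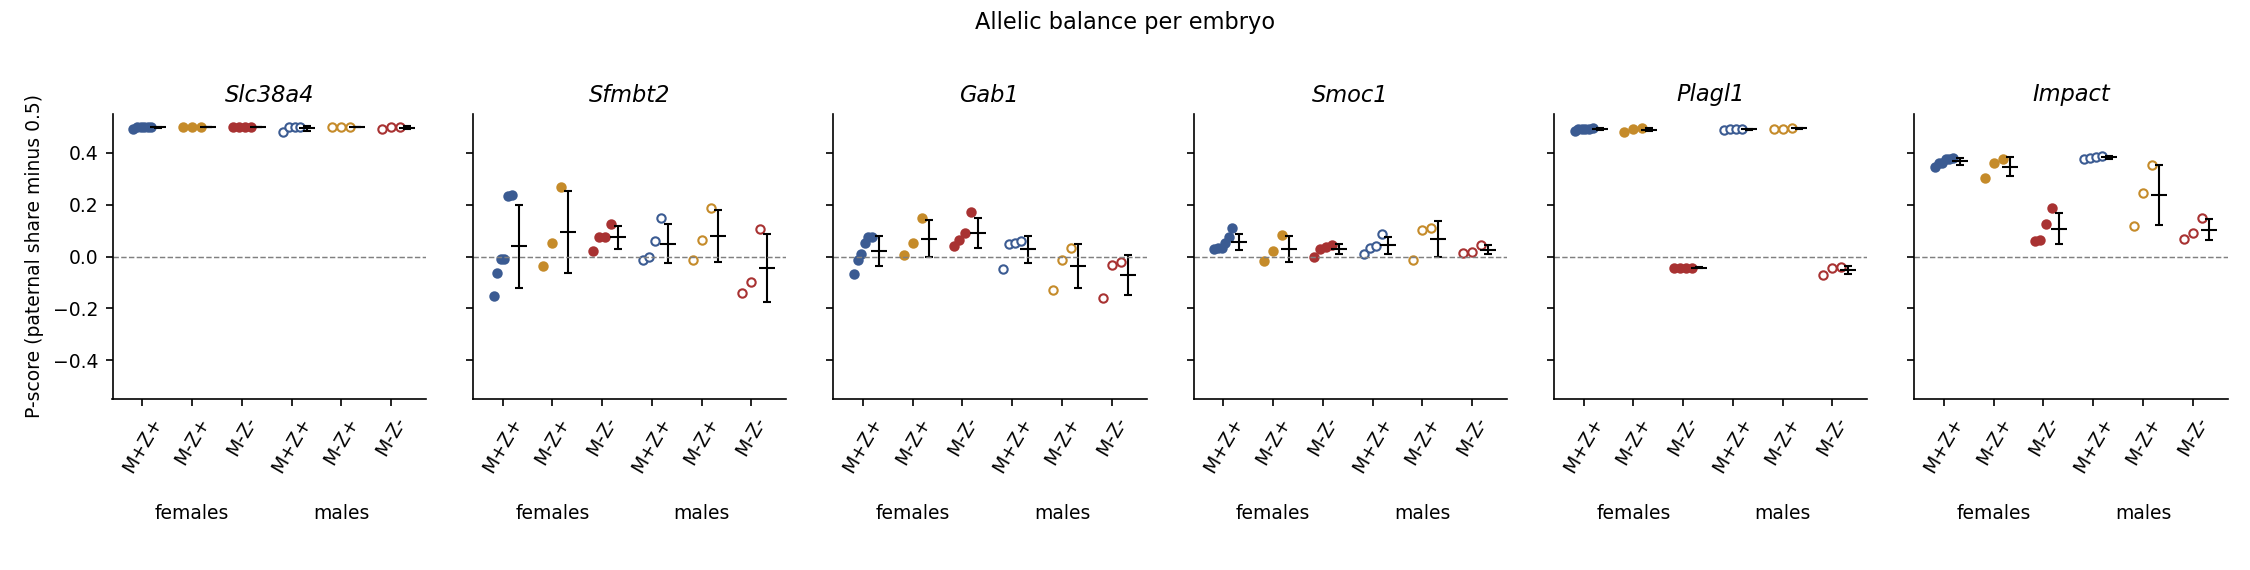
P-score (paternal share minus 0.5) of Slc38a4, Sfmbt2, Gab1, Smoc1 and the contrast genes Plagl1 and Impact in each embryo, by genotype, with filled points for females and open points for males, bars for the mean ± SD and a dashed line at equal alleles. Slc38a4 sits at or near 0.5 in all 3 genotypes, Sfmbt2, Gab1 and Smoc1 scatter around or just above 0 in all 3, and the M-Z- embryos of Plagl1 drop to between -0.0709 and -0.0420.

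No member was called for an allelic shift in any comparison of genotypes. A call needed P-scores that differed by 0.1 or more and an edgeR p under 0.05 after Benjamini-Hochberg adjustment across the tested autosomal genes. Between M-Z- and M+Z+ embryos 0 of 4 members were called, against 0.402% of all tested genes in females and 2.54% in males. Of the 163 genes called in males, 136 were on chromosome 17, which holds Zfp57 and no member. Between M-Z+ and M+Z+ embryos 0 of 4 members were called, against 0.186% in females and 0.171% in males. Between M-Z- and M-Z+ embryos 0 of 4 were called, against 0.232% in females and 2.27% in males, of which 128 of 146 genes were on chromosome 17. No member had an unadjusted edgeR p under 0.05 in these 6 comparisons, where 5.2 to 7.68% of all tested genes had one. Slc38a4 gave no p between female M-Z- and M-Z+ embryos, where neither group had a maternal read. For Sfmbt2, Gab1 and Smoc1, read at 25 to 308 reads per embryo, the absence of a call does not exclude a shift within the following intervals. The 95% interval of the change in the log2 ratio of paternal to maternal reads, M-Z- against M+Z+, ran from -0.75 to 1.22 for Sfmbt2, -0.14 to 0.92 for Gab1 and -0.45 to 0.13 for Smoc1 in females. In males it ran from -1.35 to 0.58, -1.22 to 0.20 and -0.49 to 0.32.

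Jade1 had no allele-assigned read in any of the 23 embryos among 15704 total counts, so its allelic state was not analysed here.

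Expression of the members was compared next. By level per length, Slc38a4 was the highest at 25.1 ± 1.26 RPKM (CPM per kilobase of exon; SD, n = 23), followed by Gab1 at 14.6 ± 1.09, Smoc1 at 7.79 ± 0.577, Jade1 at 6.43 ± 0.802 and Sfmbt2 at 0.716 ± 0.104 RPKM. The ranges of Smoc1 and Jade1 are the closest neighbours in this order, and their means differ by less than the sum of the SDs. A gene was called changed when edgeR's quasi-likelihood test, fitted within each sex, gave an adjusted p below 0.05 and the log2 fold change reached 0.5 in size.

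None of the 5 members was called in M-Z- against M+Z+ embryos of either sex, while 0.563% of 16871 genes were called in females and 0.39% of 16664 genes in males. By DESeq2, 0 of the 5 members were called as well. At an unadjusted p below 0.05 there was 1 member in females (Smoc1) and 1 in males (Jade1), against 15.5% of all tested genes in females and 17% in males. The median log2 fold change of the members was -0.059 in females and -0.022 in males, against -0.0036 and 0.0017 over all tested genes. The median size of the change was 0.059 in females and 0.048 in males, against 0.086 and 0.134 over all tested genes. Without male M-Z- replicate 2, 0 of the 5 members were called in males and their median log2 fold change was -0.091. The male values were then -0.047 for Slc38a4, -0.091 for Sfmbt2, 0.058 for Gab1, -0.12 for Jade1 and -0.12 for Smoc1, with adjusted p-values of 0.642 to 0.901.

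Slc38a4 was the steadiest member. It was measured at 103 to 114 CPM with a median of 107 in the 6 female M+Z+ embryos, at 108, 98.8 and 97.4 CPM in female M-Z+ embryos and at 100.1, 109, 97.1 and 111 CPM in female M-Z- embryos. The male values were 97.9, 108, 111 and 104 CPM in M+Z+, 107, 100.1 and 97.98 CPM in M-Z+ and 101, 103 and 103 CPM in M-Z- embryos. The groups overlapped in both sexes. The highest embryo of the 23 was 1.18-fold above the lowest, and only 4.13% of 15503 genes had a smaller coefficient of variation. The log2 fold change in M-Z- embryos was -0.059 ± 0.0528 (SE; 95% interval -0.17 to 0.053; adjusted p = 0.654) in females and 0.0022 ± 0.0672 (SE; 95% interval -0.14 to 0.15; adjusted p = 0.992) in males. A change of 0.5 on the log2 scale lies outside both intervals.

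Sfmbt2 was the lowest and most variable member. It was at 6.21 to 7.12 CPM with a median of 6.47 in female M+Z+ embryos, at 7.57, 6.44 and 6.21 CPM in female M-Z+ embryos and at 6.61, 4.31, 7.88 and 6.82 CPM in female M-Z- embryos. Male embryos held 6.35, 5.88, 5.46 and 8.42 CPM in M+Z+, 7.74, 7.39 and 5.59 CPM in M-Z+ and 7.18, 5.93 and 5.09 CPM in M-Z- embryos. Every group overlapped the others. The log2 fold change in M-Z- embryos was -0.046 ± 0.135 (SE; adjusted p = 0.913) in females and -0.065 ± 0.186 (SE; adjusted p = 0.888) in males.

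Gab1 changed little between M-Z- embryos and their controls. It was at 66.3 to 81.6 CPM with a median of 72.7 in female M+Z+ embryos, at 82.9, 73.0 and 84.4 CPM in female M-Z+ embryos and at 72.4, 76.8, 72.2 and 76.1 CPM in female M-Z- embryos. Among males it stood at 72.5, 70.9, 64.4 and 69.9 CPM in M+Z+, at 74.0, 68.0 and 67.7 CPM in M-Z+ and at 73.1, 65.0 and 71.8 CPM in M-Z- embryos. The M-Z- embryos lay inside the control range in females, and the groups overlapped in males. The female M-Z+ embryos at 82.9 and 84.4 CPM lay above every female M+Z+ embryo, without a call. The log2 fold change in M-Z- embryos was 0.023 ± 0.0593 (SE; adjusted p = 0.899) in females and 0.048 ± 0.0639 (SE; adjusted p = 0.731) in males.

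Smoc1 was lower in female M-Z- embryos than in their controls without passing the adjusted test. The 6 female M+Z+ embryos were at 27.5 to 30.3 CPM with a median of 28.3, and the 4 female M-Z- embryos were at 24.2, 27.3, 27.2 and 25.02 CPM. These groups did not overlap, which was true of 4.29% of all tested genes in this comparison. The log2 fold change was -0.15 ± 0.0593 (SE; 95% interval -0.27 to -0.022) with an unadjusted p of 0.0238 and an adjusted p of 0.242 by edgeR. In males the M+Z+ embryos were at 28.6, 25.2, 27.02 and 27.6 CPM and the M-Z- embryos at 27.3, 27.9 and 22.6 CPM, which overlap. The male log2 fold change was -0.022 ± 0.110 (SE; adjusted p = 0.942). Without male M-Z- replicate 2 it was -0.124 (adjusted p = 0.688).

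Jade1 was the member with the largest change in males when all embryos were used, again without a call. The male M+Z+ embryos were at 37.8, 36.0, 44.1 and 39.5 CPM, the M-Z+ embryos at 35.04, 39.3 and 34.5 CPM and the M-Z- embryos at 34.9, 22.2 and 37.8 CPM. The M-Z- embryo of replicate 2 lay below all other 22 embryos, which were at 34.3 CPM or more. The log2 fold change was -0.29 ± 0.130 (SE; 95% interval -0.57 to -0.0041) with an unadjusted p of 0.0472 and an adjusted p of 0.288 by edgeR. Without replicate 2 of the male M-Z- embryos it was -0.117 (adjusted p = 0.642), which was smaller in size than the -0.124 of Smoc1. In females Jade1 was at 38.8 to 42.8 CPM with a median of 42.3 in M+Z+ and at 35.8 to 44.3 CPM in M-Z- embryos, and the log2 fold change was -0.094 ± 0.0693 (SE; adjusted p = 0.565).

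**Figure D3:**
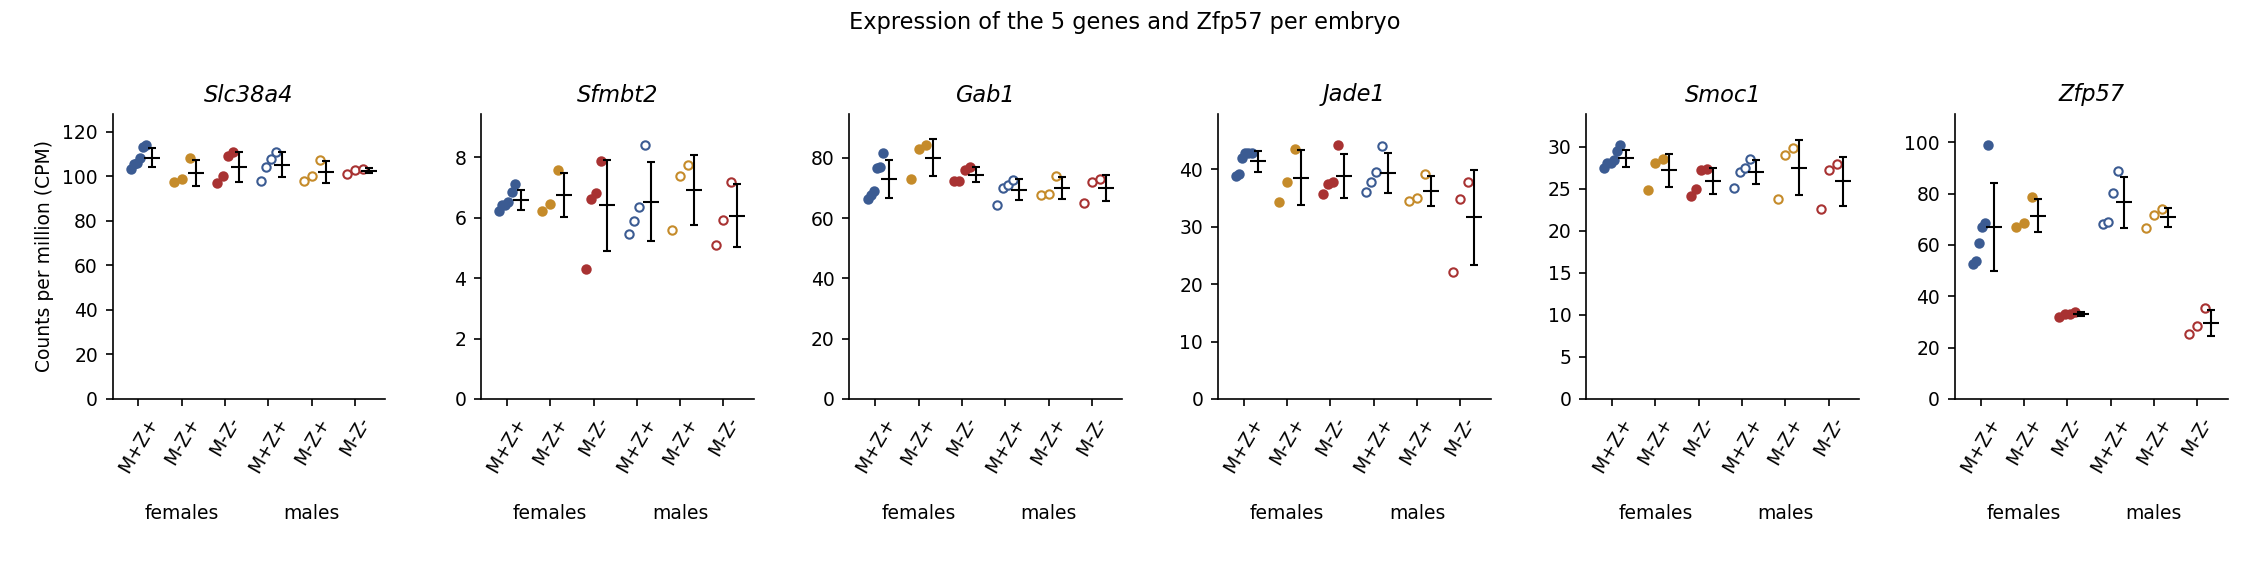
Expression in CPM of the 5 members and of Zfp57 in each embryo, by genotype, with filled points for females, open points for males and bars for the mean ± SD. The genotypes of Slc38a4, Sfmbt2 and Gab1 overlap, 1 male M-Z- embryo of Jade1 lies at 22.2 CPM, and Zfp57 is at 25.5 to 35.3 CPM in M-Z- embryos and at 52.7 CPM or more in all others.

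Loss of the maternal product alone left the members uncalled as well. In M-Z+ against M+Z+ embryos 0 of 5 members were called, against 0.0593% of tested genes in females and 0.048% in males. The female log2 fold changes were -0.11 for Slc38a4, 0.020 for Sfmbt2, 0.12 for Gab1, -0.11 for Jade1 and -0.086 for Smoc1, with adjusted p-values of 0.733 to 0.983. In males they were -0.069, 0.058, -0.012, -0.14 and 0.0027 in the same order, with adjusted p-values of 0.819 to 0.997. Between M-Z- and M-Z+ embryos 0 of 5 members were called, against 0.196% in females and 0.15% in males. No member had an unadjusted edgeR p under 0.05 in these 4 comparisons, where 6.64 to 9.5% of all tested genes had one, and DESeq2 called none of the members. A fit of both sexes together, which gives 1 value over females and males, put 1 member at an unadjusted p under 0.05 in each comparison with M+Z+ embryos. Jade1 in M-Z- embryos had a log2 fold change of -0.19 (95% interval -0.34 to -0.040; unadjusted p = 0.0153, adjusted p = 0.0935), where 26.4% of all tested genes had such a p. Without male M-Z- replicate 2 it was -0.10 (adjusted p = 0.312). Slc38a4 in M-Z+ embryos had a log2 fold change of -0.092 (95% interval -0.18 to -0.0025; unadjusted p = 0.0445, adjusted p = 0.335), where 14.3% had one, and -0.091 (adjusted p = 0.264) without that embryo. In the same fit without it, Smoc1 in M-Z- embryos was at -0.13 (adjusted p = 0.170) and Jade1 in M-Z+ embryos at -0.13 (adjusted p = 0.247), both at an unadjusted p under 0.05 as 22.1% and 16.8% of all tested genes were. The tests of the difference between the sexes called no member either, by edgeR or, for expression, DESeq2. For expression, 0% of 17139 genes passed by edgeR in M-Z- (1107 at an unadjusted p under 0.05) and 0% in M-Z+ embryos (625 at an unadjusted p under 0.05). For the alleles, 0.836% of 6462 genes passed in M-Z- embryos (374 at an unadjusted p under 0.05) and 0% in M-Z+ embryos (347 at an unadjusted p under 0.05).

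The members were set beside 18 transcripts at germline-methylated imprinting control regions, a list chosen with earlier results of these data known. Slc38a4 is not on it, but the study also followed a methylated control region at Slc38a4, so the list does not set methylated loci apart from all members. Methylation was not analysed here, so the values of Slc38a4 are not read as those of a locus that kept or lost it. Of these 18, 11 were called higher and 0 lower in M-Z- embryos of each sex, with a median log2 fold change of 0.78 in females and 0.73 in males. Of the 9 tested for alleles, 6 were called shifted to the maternal allele and 1 to the paternal allele in each sex. Without male M-Z- replicate 2, 10 of the 18 were called higher in males with a median of 0.66, and the allelic counts were again 6 and 1. The male log2 fold changes were then 1.07 for Plagl1 (adjusted p = 3.57e-05), 0.55 for Impact (adjusted p = 0.0474) and 0.074 for Peg10 (adjusted p = 0.71). Plagl1 rose by 1.00 ± 0.0604 on the log2 scale (SE; adjusted p = 2.12e-08) in females and 1.099 ± 0.0967 (SE; adjusted p = 5.25e-05) in males. Impact, which encodes a regulator of the GCN2 kinase, rose by 0.78 (adjusted p = 3.5e-07) in females and 0.67 (adjusted p = 0.0232) in males. The mean P-score of Impact was 0.373 ± 0.0127 (SD, n = 10) in M+Z+, 0.292 ± 0.0981 (SD, n = 6) in M-Z+ and 0.106 ± 0.0486 (SD, n = 7) in M-Z- embryos. Its P-score was lower by 0.259 in female and 0.280 in male M-Z- embryos (edgeR, adjusted p = 5.46e-07 and 3.61e-06). In male M-Z+ embryos it was lower by 0.145 (edgeR, adjusted p = 0.0298). The difference in female M-Z+ embryos was -0.021 and was not called (edgeR, adjusted p = 0.962). Peg10, a retrotransposon-derived gene, was not called, with a log2 fold change of 0.044 (adjusted p = 0.799) in females and 0.016 (adjusted p = 0.936) in males.

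**Figure D4:**
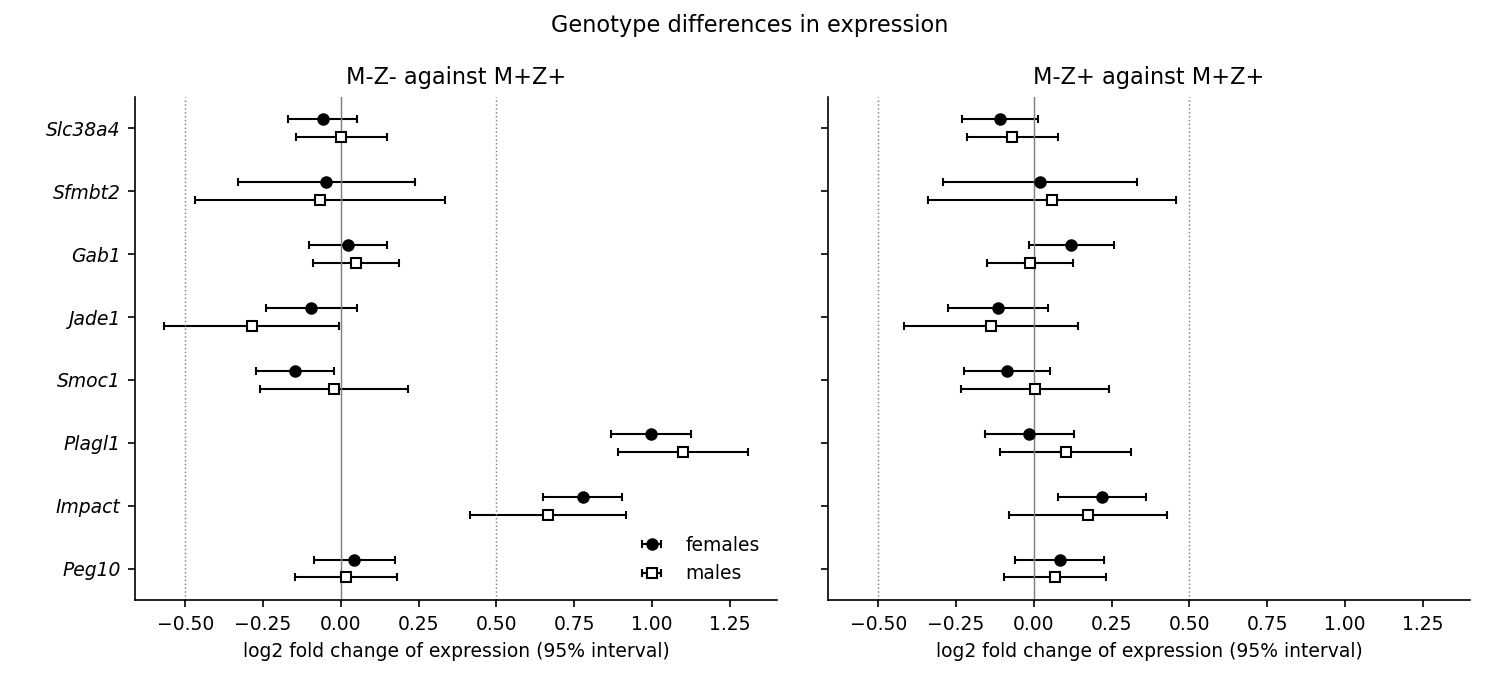
Log2 fold change in expression, with 95% intervals, of the 5 members and of Plagl1, Impact and Peg10 in M-Z- and in M-Z+ against M+Z+ embryos, with filled circles for females, open squares for males and dotted lines at the size of 0.5 needed for a call. The members lie between -0.29 and 0.12, whereas Plagl1 and Impact lie between 0.67 and 1.099 in M-Z- embryos.

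Lists of chromatin factors were read in the same fits, in which calls made up 0.563% of the female and 0.39% of the male tests, so that 0 calls in a list of this size is near the background. Of 13 H3K27me3 writers and erasers, such as the PRC2 subunits Ezh2, Eed and Suz12 and the demethylase Kdm6a, 13 were tested and 0 were called in M-Z- embryos of either sex, with a median log2 fold change of 0.051 in females and 0.034 in males. A list of 15 factors reported to act on imprints of either kind, such as Smchd1, the DNA methyltransferase Dnmt1 and Trim28, again held Eed. Of these 15, 14 were tested and 0 were called, with medians of 0.047 and 0.028. Without male M-Z- replicate 2, the male medians of these lists were 0.011 and 0.055, again with 0 called. Of the 3 other reported noncanonical transcripts, only Xist, the RNA of X inactivation, was tested, in females, with a log2 fold change of -0.19 (adjusted p = 0.193). The other 2, Gm32885 and Platr20, did not pass the filter on low counts.

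Paralogs of the members were read next. Of 8 paralogs tested, 0 were called in M-Z- embryos of either sex, against the same 0.563% and 0.39% of all tested genes, so the count says little of these families, and the medians were 0.051 in females and -0.031 in males. The amino acid transporters Slc38a1 and Slc38a2 were at 24.2 ± 3.04 and 61.7 ± 6.81 RPKM (SD, n = 23), beside 25.1 RPKM for Slc38a4. Their mean P-scores of -0.0325 ± 0.0105 and -0.0412 ± 0.0213 (SD, n = 23) put both near equal alleles, unlike Slc38a4. In M-Z- embryos Slc38a1 had a log2 fold change of 0.081 in females and 0.075 in males, and Slc38a2 of 0.042 and -0.13. Sfmbt1 was at 5.93 RPKM, above the 0.716 RPKM of Sfmbt2, with a log2 fold change of -0.054 in females and -0.29 in males (adjusted p = 0.158), which was -0.18 (adjusted p = 0.341) without male M-Z- replicate 2. Gab2 was at 5.27 RPKM with log2 fold changes of -0.021 and 0.070 and a mean P-score of -0.0116 ± 0.0390 (SD, n = 23). Gab3 was at 0.55 RPKM with log2 fold changes of 0.36 (adjusted p = 0.533) in females and -0.14 in males. Jade2 was at 1.96 RPKM (0.076 and 0.13), Jade3 at 5.35 RPKM (-0.066 and -0.18) and Smoc2 at 32.2 RPKM (0.060 and 0.17), with the log2 fold changes of females and males in parentheses. Without male M-Z- replicate 2, the male values were -0.054 for Slc38a2, -0.11 for Jade3, 0.20 for Jade2, 0.12 for Slc38a1 and 0.031 for Smoc2. They were 0.063 for Gab2 and -0.147 for Gab3, and 0 of the 8 paralogs were called.

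The nearest genes with a P-score in every embryo were read for each member. Slc38a2, 295 kb to the left of Slc38a4, had a mean P-score of -0.040 in M+Z+ and -0.029 in M-Z- embryos, and Rpap3, 619 kb to the right, had 0.103 and 0.129. Neither neighbour shared the reading of the paternal allele alone. Upf2, 4314 kb to the left of Sfmbt2, and Itga8, 1511 kb to its right, were at 0.5 in every embryo, as was Smarca5, 24.97 kb to the left of Gab1. Sfmbt2 and Gab1 themselves were read from both alleles, and the genes read next to Sfmbt2 lie far from it. Usp38, 100.2 kb to the right of Gab1, had a mean P-score of -0.177 in M+Z+ and -0.218 in M-Z- embryos. The neighbours of Jade1 were Larp1b (0.215 and 0.287) and Pabpc4l (0.0147 and 0.0598), and those of Smoc1 were 2310015A10Rik (0.0112 and 0.0220) and Ttc9 (0.0084 and 0.0211), with the mean P-scores in M+Z+ and M-Z- embryos in parentheses.

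No close correlation was seen between members over the embryos. The Pearson r of log2 CPM between pairs of members over the 23 embryos ran from -0.156 to 0.286 (-0.146 to 0.416 without male M-Z- replicate 2), given as a description because the points share genotype, sex and library depth. The coefficient of variation was 5.02% for Slc38a4, 7.42% for Smoc1, 7.47% for Gab1, 12.5% for Jade1 and 14.5% for Sfmbt2, against a median of 10.5% over 15503 genes. The genes whose levels were most like those of Slc38a4 were Rhbdd1 (r = 0.70), Pole4 (0.664) and Rnf19a (0.659). Those most like Sfmbt2 were Cacna1d (0.703), Arntl2 (0.701) and Pde4dip (0.68). Gab1 was matched most closely by Lnpk (0.883), U2surp (0.847) and Fign (0.845), and Jade1 by Fbxo33 (0.873), Kif14 (0.873) and Rfwd3 (0.872). Smoc1 was matched by Fn1, which encodes the matrix protein fibronectin (0.715), Limch1 (0.689) and Adamts7 (0.68). The top 1% of all genes began at r = 0.495 for Slc38a4 and Smoc1, 0.448 for Sfmbt2, 0.709 for Gab1 and 0.761 for Jade1, so high values were common for Gab1 and Jade1. Without male M-Z- replicate 2, the 3 genes most like Jade1 had r of 0.664 to 0.681 and its coefficient of variation was 8.49%, so both rested in part on that embryo.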

How the data were processed

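RNA-seq libraries of 23 embryos were used. The deposited total tables held raw counts per gene, which the authors made by trimming, aligning unique reads to mm9 with STAR 2.7.8a and counting per gene with featureCounts (Subread 2.0.1). The stated option counts reads of 1 strand only, while the labels name a TruSeq RNA kit and do not say that it keeps strand. If it does not, part of the reads of each gene went uncounted, and reads of a gene and of an antisense partner cannot be told apart. The options used for allelic counting were not given in the sources used here. The deposited allelic tables held raw counts per gene and allele, which the authors made by masking strain variants and splitting reads with SNPsplit. The other deposited column was exon length in bases. Columns without a sample numbered 0. Among the female allelic columns, 4 M+Z+ embryos shared header names and were never joined to the total table by embryo.

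CPM, RPKM and P-scores were computed from these counts. P-scores needed more than 10 allele-assigned reads in an embryo. Total counts were tested with edgeR 4.0.16 and limma 3.58.1 in R 4.3.3 (glmQLFit and glmQLFTest, TMM, filterByExpr, 3 genotypes of a sex in 1 fit). Allele counts were tested in edgeR with embryo effects and a paternal term per genotype, for autosomal genes averaging 20 reads or more. P-values were adjusted by Benjamini-Hochberg over all tested genes. Exact tests were two-sided and unadjusted, with 8 Kruskal-Wallis and 24 pair tests of members. Fits were tested on simulated data. Alternatives were DESeq2 1.42.0, other filters and sizes, both sexes in 1 fit, only 2 groups in a fit, a replicate block and leaving out each embryo. Leaving out male M-Z- replicate 2 for paralogs, correlations and gene lists was chosen after seeing the data. Separate embryos are the replicates; litters were not stated. Members and lists were chosen with earlier results of these data known. The genes named were the members, Zfp57, Plagl1, Impact, Peg10, the paralogs, the nearest neighbours with a P-score and the 3 genes of highest correlation for each member at a mean of at least 1 CPM with a prior count of 2. Promoter windows used the mm9 (NCBIM37) genome, in which 99.8% of 20172 matched genes overlapped their GENCODE entry on the same strand.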

Additional observations from a re-analysis of the deposited data

Results flagged for a closer look

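Of 27 groups of 4 to 10 embryos that were examined for an embryo standing apart by Dixon's criterion, 3 held one, where chance alone gives about 1 in 20. The P-score of Gab1 was -0.05 in replicate 4 of the male M+Z+ embryos, while the nearest of the other 3 was at 0.05. The P-score of Slc38a4 was 0.4934 in 1 female M+Z+ embryo, which had 1 maternal read of 152, while the other 5 were at 0.5. It was 0.481 in replicate 3 of the male M+Z+ embryos, which had 3 maternal reads of 156, while the other 3 were at 0.5. With groups otherwise at exactly 0.5, a single maternal read is enough to stand apart.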

How the results depend on the processing

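Of 885 values recomputed under alternatives, 853 kept their direction and their side of the threshold, 32 changed sign, and the 217 counts of members called were the same throughout. All reversals were in values that were not called. For alleles the value was the mean P-score or its difference, which only leaving out an embryo of the compared groups can alter. The other alternatives could therefore not turn its sign, nor could dropping the size needed for a call turn a log2 fold change. The number of values that kept their direction is in part fixed by this. Leaving out 1 embryo at a time turned 24 of 454 values, in 14 of 44 results. For P-scores, these ran from -0.00093 to 0.077 for the bias of Sfmbt2 in female M+Z+ embryos and from -0.0032 to 0.075 for its shift in female M-Z- embryos. The shift of Sfmbt2 in M-Z+ embryos ran from -0.032 to 0.12 in females and from -0.024 to 0.076 in males, and that of Slc38a4 in male M-Z- embryos from -0.0027 to 0.0048. For expression in M-Z- embryos, log2 fold changes ran from -0.0014 to 0.055 (Gab1) and -0.15 to 0.10 (Sfmbt2) in females, and from -0.18 to 0.067 (Sfmbt2), -0.047 to 0.030 (Slc38a4) and -0.12 to 0.088 (Smoc1) in males. In M-Z+ embryos they ran from -0.072 to 0.080 (Sfmbt2) in females, and from -0.047 to 0.013 (Gab1), -0.025 to 0.19 (Sfmbt2) and -0.050 to 0.097 (Smoc1) in males. With both sexes in 1 fit, which gives 1 value over females and males and no male value, the log2 fold changes were 0.051 (Gab1) and -0.045 (Smoc1) in M-Z+ and -0.028 (Slc38a4) in M-Z- embryos, each of the opposite sign to males alone. Without the filter on low counts the male values became -0.0022 for Smoc1 in M-Z+ and -0.0064 for Slc38a4 in M-Z- embryos, and with only 2 groups in the fit the latter was -0.0010. The cause was not tested. The lowest adjusted p of a member was 0.0694 for expression (Jade1, males, without male M-Z- replicate 3, log2 fold change -0.41) and 0.701 for an allelic shift (Gab1, males, without male M+Z+ replicate 4).

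The replicate block called 0 members and turned the male M-Z- changes of Sfmbt2 to 0.063 and of Slc38a4 to -0.0099. The replicate numbers were not used as pairs in the main fits. Same-numbered embryos had correlations of -0.36 to 0.304 in females (2 of 10 pairs over 0.1) and -0.214 to 0.508 in males (2 of 9). In each sex 2 embryos correlated best with their own number. Litters were not stated, so these correlations cannot exclude a shared litter behind the numbers. For alleles the block could be fitted only in males. A minimum mean of 50 allele-assigned reads left no value for Sfmbt2. Among the 4 members with allele-assigned reads, Sfmbt2 had the fewest, at 25 to 59 per embryo.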

Other observations

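The span of Sfmbt2 holds the miRNA cluster for which its intron is known. Of 64 miRNA genes listed in that span, 15 had any count and these held 34 reads in all 23 embryos, in libraries made for mRNA. The span of Smoc1 holds 1 miRNA gene with 23 reads.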
